A study of Mus musculus with 12 samples.

Results

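Mammary tissue of mice labelled Stat5a-/- was compared with mammary tissue of mice labelled Stat5ab+/null, at day 6 after a mating plug, over every probe set and gene of a mouse expression array. The comparison used 6 of the 12 arrays of the study, chosen by their genotype label: 3 arrays per group, each from 1 mouse. By their labels, Stat5a-/- mice lack both copies of Stat5a and keep both copies of Stat5b, and Stat5ab+/null mice carry 1 chromosome on which both genes are inactivated and 1 intact chromosome. Both groups therefore have the same labelled number of intact Stat5 alleles and differ in which gene they belong to. Both were kept on a mix of C57BL/6, FVB and 129 strains, so the mice were not of 1 inbred strain, and wild-type mice are not among the samples analysed here. The genotype labels name no promoter or cell type that would limit the deletions to the mammary gland. The sample descriptions mention sorted cells, and the treatment text describes PolyIC given to switch on an Mx1-Cre transgene, whereas the design text gives whole frozen mammary tissue. The design text was followed, and whether these mice received PolyIC cannot be read from the labels. Arrays labelled Stat5a-/- have ABB in their titles and the other 3 have AAB. Read as counts of alleles, these letters do not match the genotype labels.

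STAT5A and STAT5B are closely related transcription factors encoded by neighbouring genes. When prolactin or another cytokine binds its receptor, a Janus kinase phosphorylates them, they pair, enter the nucleus and bind DNA at a short palindrome. In the mammary gland they are needed for luminal cells to form alveoli during pregnancy and for transcription of milk protein genes, and STAT5A is the more abundant form in the epithelium. Early in pregnancy ducts branch and alveoli begin to bud within a pad of fat that also holds a lymph node, so whole tissue carries RNA of epithelium, fat, vessels and lymphocytes. In such bulk samples fewer cells of a type and less RNA per cell cannot be told apart.

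The palindrome is shown here in the promoters of the casein genes, beside the promoters of 3 genes with some of the largest differences of this comparison. Each line gives the 150 bases before a RefSeq transcription start site (GRCm38.p6, 5′ to 3′ on the gene's own strand), and capitals mark the letters TTCNNNGAA, which read the same on both strands. Csn1s1 and Csn2 encode the alpha-S1 and beta caseins of milk, Atp7b a copper transporter, Hepacam2 an adhesion protein of the immunoglobulin family, and Wfdc12 a secreted protein of the whey acidic protein family.
Csn1s1, chr5:87666058-87666207, plus strand: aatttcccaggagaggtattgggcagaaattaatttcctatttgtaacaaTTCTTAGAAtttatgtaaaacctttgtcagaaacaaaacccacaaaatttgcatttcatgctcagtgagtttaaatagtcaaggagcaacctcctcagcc
Csn2, chr5:87699426-87699575, minus strand: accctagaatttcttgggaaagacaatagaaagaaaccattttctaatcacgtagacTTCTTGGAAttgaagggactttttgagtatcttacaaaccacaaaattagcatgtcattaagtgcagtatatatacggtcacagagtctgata
Atp7b, chr8:22060075-22060224, minus strand: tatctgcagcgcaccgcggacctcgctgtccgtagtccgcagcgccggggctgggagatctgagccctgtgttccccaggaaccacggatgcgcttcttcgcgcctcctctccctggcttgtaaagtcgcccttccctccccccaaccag
Hepacam2, chr6:3494499-3494648, minus strand: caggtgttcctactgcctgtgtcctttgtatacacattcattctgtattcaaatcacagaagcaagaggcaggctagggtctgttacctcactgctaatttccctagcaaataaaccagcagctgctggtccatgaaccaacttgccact
Wfdc12, chr2:164190559-164190708, minus strand: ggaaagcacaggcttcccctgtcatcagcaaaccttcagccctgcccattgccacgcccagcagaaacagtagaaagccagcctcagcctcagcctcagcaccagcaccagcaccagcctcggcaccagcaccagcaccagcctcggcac

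The letters begin 100 bases before the start site in Csn1s1 (TTCTTAGAA) and 93 bases before it in Csn2 (TTCTTGGAA), and the printed stretches of Atp7b, Hepacam2 and Wfdc12 do not hold them. In RefSeq windows of 300 bases around start sites, 8.3% of 32851 windows held the letters, as did 6.82% of the windows of genes tested here. Of the milk protein genes described later, 12 of 13 had a window, and 4 of these 12 windows held the letters, the others besides Csn1s1 and Csn2 being Csn1s2a and Glycam1. Among known Stat5 targets, of which 13 of 17 had a window, they occurred in 4 of 18 windows. These 4 belong to 3 genes, Bcl6, Cish and Socs3. Of the 12 genes with the largest positive differences 11 had a window, and 1 of their 12 windows held the letters (Csn1s1). Only 7 of the 12 with the largest negative differences had a window, and 1 of their 8 windows held them (Tgm1). A match of letters describes these windows and does not show binding.

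Array medians of the deposited log2 signal lay between 7.28 and 7.35. Over probe sets (no independent replicates of each other), Pearson r was 0.983 to 0.993 over the 6 pairs of arrays of 1 genotype and 0.980 to 0.994 over the 9 pairs of different genotype, and these ranges overlap almost wholly. Markers of the tissue were present in all 6 arrays: mean signals were 10.7 to 11.2 over 18 luminal epithelial genes, 11.4 to 11.8 over 10 basal epithelial genes and 13.4 to 13.7 over 11 white adipocyte genes. The bacterial hybridization controls, which hold no mouse RNA, averaged 11.6 to 11.7 in the arrays labelled Stat5a-/- and 11.9 to 12.0 in the Stat5ab+/null arrays, and thus moved with the genotype label. For the actin control, the log2 gap between its 3′ and 5′ probe sets, which grows as RNA is shortened, also separated the groups: 0.13, 0.16 and 0.16 against 0.19, 0.20 and 0.27. The same gap for the GAPDH control overlapped between the groups: -0.101, 0.0016 and -0.0099 against -0.0455, 0.052 and 0.0222. The part of these controls in the results was not tested. The number of arrays limits the precision, and p-values measure only the spread between these mice.

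The targeted genes did not follow the labels. The brighter Stat5a probe set (1421469_a_at) stood at 10.40, 10.40 and 10.10 in the first group (Stat5a-/- 1 to 3) and at 9.89, 9.77 and 10.08 in the second (Stat5ab+/null 1 to 3). All 3 arrays labelled as lacking Stat5a lay above all 3 heterozygous ones, by 0.39 on average on the log2 scale (exact permutation p = 0.1, 2-sided, the smallest that 3 against 3 allows). The other Stat5a probe set (1450259_a_at) read 9.17, 9.10 and 8.55 against 8.63, 7.91 and 8.58, a difference of 0.56 with overlapping groups (exact p = 0.3). For Stat5b the brighter probe set (1422103_a_at) read 9.63, 9.63 and 9.51 against 9.98, 9.85 and 9.87, a difference of -0.31 without overlap (exact p = 0.1). The dimmer one (1422102_a_at) read 8.38, 8.23 and 8.21 against 8.49, 8.37 and 8.72, a difference of -0.25 (exact p = 0.2). All 4 differences run opposite to the labelled allele numbers, and also to the title letters ABB and AAB where these are read as counts of alleles. None passed limma's test over all probe sets (adjusted p 0.351 to 0.526). No source used here gives the deleted exons or the position of these probes, and probes outside the deletion would leave the label unchecked. Directions below are therefore those of the arrays labelled Stat5a-/- minus the arrays labelled Stat5ab+/null.

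**Figure D1:**
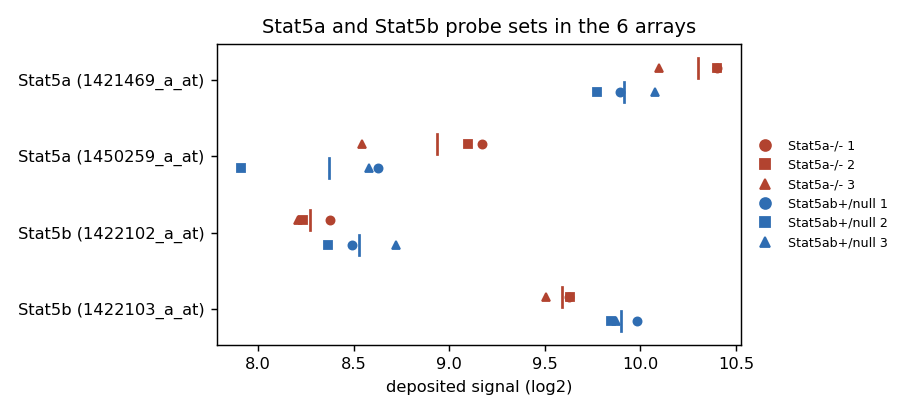
Deposited log2 signal (horizontal axis) of the 2 Stat5a and 2 Stat5b probe sets in each of the 6 arrays; points are arrays, coloured by labelled genotype, and vertical ticks are group means. Both Stat5a means are higher, and both Stat5b means lower, in the arrays labelled Stat5a-/-.

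Lymphoid RNA differed widely between the arrays and was high in arrays of both genotypes. Over the 14 of 15 listed B and plasma cell genes that were measured, the mean log2 signal was 6.70, 6.59 and 11.1 in the first group and 7.51, 11.3 and 9.01 in the second. Stat5a-/- 3 and Stat5ab+/null 2 were high, Stat5ab+/null 3 intermediate, and the other 3 arrays low. Ms4a1, which encodes the B cell surface protein CD20, read 7.74, 6.71 and 12.93 against 9.71, 13.14 and 10.55. Jchain, which encodes the chain that joins secreted immunoglobulins, read 6.05, 7.70 and 11.96 against 6.14, 13.12 and 11.22. Each gene thus spanned more within either group than the group means differed (-1.59 for Jchain). T cell genes (14 of 18 measured) averaged 6.77, 6.77 and 7.86 against 6.79, 8.67 and 7.03, and genes of lymph node vessels and chemokines (6 of 10) averaged 6.73, 6.73 and 8.88 against 7.02, 10.2 and 7.30. The same arrays were high in each group.

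Other tissues varied between mice as well. Skeletal muscle genes (12 of 14 measured) averaged 6.92, 6.88 and 10.0 against 7.03, 9.06 and 6.77, high in the same 2 arrays as the B cell genes. Brown adipocyte genes (9 of 10 measured) averaged 7.95, 8.60 and 9.01 against 8.06, 8.09 and 9.56, highest in the third array of either group. Luminal epithelial genes averaged 11.1, 11.0 and 10.7 against 11.2, 11.0 and 11.1, a far narrower range. The first principal component of the 6 arrays held 43.8% of the variance and placed Stat5a-/- 3 (40.8) and Stat5ab+/null 2 (46.4) at its high end, Stat5ab+/null 3 (11.3) between, and Stat5a-/- 1 (-44.2), Stat5ab+/null 1 (-32.3) and Stat5a-/- 2 (-21.9) at its low end, the same 3 levels as for the B cell genes.

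**Figure D2:**
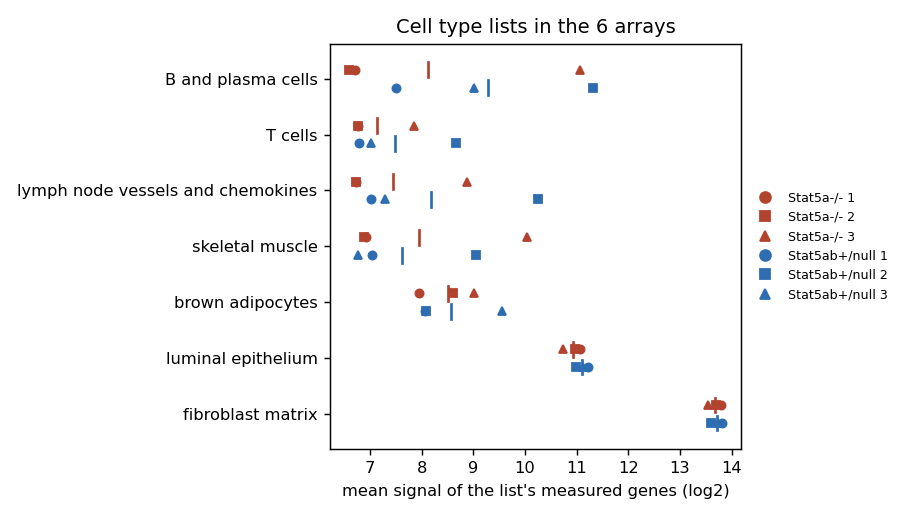
Mean deposited log2 signal of the measured genes of 7 cell type lists (rows) in each of the 6 arrays; colour gives the labelled genotype, symbols the replicate, and vertical ticks the group means. B cell signal runs from 6.59 to 11.3 with both genotypes at both ends, whereas luminal and fibroblast lists stay within a narrow range.

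Over all genes, 2 of 14404 tested, or 0.0139%, passed limma at a Benjamini-Hochberg adjusted p under 0.05, 1 higher and 1 lower (0.00694% each), and both lie on chromosome 8. Atp7b, which encodes a copper-transporting ATPase that also moves copper into milk, rose in the arrays labelled Stat5a-/-. Its signal was 8.43, 8.55 and 8.63 in those arrays and 6.62, 6.49 and 6.84 in the Stat5ab+/null arrays. Ido1, which encodes the enzyme that opens the breakdown of tryptophan to kynurenine and is induced by interferon gamma, fell. It read 6.48, 6.35 and 6.60 against 8.40, 8.34 and 8.12. Neither gene's groups come near each other, and the spread within a group was small (SD 0.10 and 0.18 for Atp7b, 0.12 and 0.15 for Ido1, n = 3 each).

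The log2 difference was 1.89 (SE 0.12) for Atp7b and -1.81 (SE 0.12) for Ido1, each with a limma adjusted p = 0.0107. A second Atp7b probe set also separated the groups, but by 0.63. Both calls ended without Stat5a-/- 1 (adjusted p = 0.130 for each gene), Stat5a-/- 2 (0.147), Stat5ab+/null 1 (0.112) or Stat5ab+/null 2 (0.107), with differences of 1.81 to 1.94 for Atp7b and -1.81 to -1.75 for Ido1 in these 4 fits. They also ended with the luminal epithelial mean of each array as a covariate (adjusted p = 0.0619 for each) and without Stat5a-/- 3 and Stat5ab+/null 2, the arrays of highest B cell signal, together (0.0883 for each), and that of Atp7b with its 2 probe sets averaged (1.26, 0.0825).

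Many more genes differed at an unadjusted p under 0.05: 1757, or 12.2% of those tested, 591 higher (4.1%) and 1166 lower (8.09%). For 2785 genes (19.3%) every array of 1 group lay above every array of the other, 874 higher (6.07%) and 1911 lower (13.3%). This excess of lower genes depends on the scale of the arrays. Of the non-overlapping genes 31.4% were higher as deposited, 51.3% after quantile normalization and 43.1% with each array centred on its median, and of those at an unadjusted p under 0.05 the shares were 33.6%, 54.1% and 45.5%. The median difference of all genes was -0.07 on the log2 scale as deposited, -0.02 after quantile normalization and -0.04 with centring, and 34.8% of genes lay above 0. Shares of a list above 0 are read against that share.

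The next largest positive differences did not pass the test. They were selected by size among genes with an unadjusted p under 0.05 and separate groups, so that both criteria are met by choice and are no result. Wfdc12 read 10.35, 11.36 and 10.16 in the arrays labelled Stat5a-/- against 7.35, 7.99 and 8.30, a difference of 2.74 (SE 0.36). Hepacam2 read 9.10, 9.25 and 9.82 against 7.43, 7.47 and 7.59, a difference of 1.89 (SE 0.19). The 3 heterozygous arrays lay within 0.2 log2 of each other for Hepacam2, and the gap to the other group was several times wider. Tph1, the rate-limiting enzyme of serotonin synthesis outside the brain, read 8.78, 9.80 and 8.55 against 7.33, 7.56 and 7.51 (1.58). Tspan12, a tetraspanin that aids Norrin signalling through Frizzled-4, differed by 1.43, the voltage-gated potassium channel gene Kcnd2 by 1.19, Fbn2, a fibrillin of elastic fibres, by 1.19 (a second probe set 0.69), and Wif1, a secreted inhibitor of Wnt ligands, by 1.10. Gm6958 differed by 1.38, but by 0.12 at its second probe set. Bcl2l15, of the Bcl2 family, differed by 1.24, and Fcgbp, a mucin-like protein that binds the Fc part of IgG, by 0.98. None of these passed (limma adjusted p 0.120 to 0.266), nor did Csn1s1, described later with the milk proteins (0.330).

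The largest negative differences, chosen in the same way, were wider still. Spink1, a secreted trypsin inhibitor, read 6.83, 6.48 and 9.65 in the arrays labelled Stat5a-/- against 11.23, 10.13 and 10.51, a difference of -2.97 (SE 0.81). The array Stat5a-/- 3 lay much closer to the heterozygous arrays than the other 2. Dmbt1, a secreted scavenger receptor of mucosal surfaces, read 4.70, 4.93 and 6.09 against 8.75, 8.29 and 6.60 (-2.64). Ly6d, a lipid-anchored surface protein, read 8.69, 7.85 and 9.43 against 11.38, 10.76 and 11.01 (-2.39). Saa3, an acute phase serum amyloid A protein, differed by -2.04, the membrane mucin gene Muc16 by -1.32, and Tgm1, the transglutaminase of keratinocytes, by -1.04. Cemip, needed for the breakdown of hyaluronan, differed by -1.26 (a second probe set -0.18), the pseudokinase gene Prag1 by -1.25 (a second -0.042), and Lrrc26, an accessory subunit of a large-conductance potassium channel, by -1.16. 2610035D17Rik differed by -1.37 and Fam25c by -1.14. None passed (limma adjusted p 0.255 to 0.307).

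Means of 2 of these genes lie under the filter level of log2 6.01 in 1 group, Kcnd2 in Stat5ab+/null (5.94) and Dmbt1 in Stat5a-/- (5.24), and their size is then uncertain. Single Stat5a-/- arrays also lay under it for 2610035D17Rik (5.96 and 5.99) and Cemip (5.99). The lower group means of the called genes, 6.48 for Ido1 (Stat5a-/-) and 6.65 for Atp7b (Stat5ab+/null), lay above that level but under the array medians. Without Stat5a-/- 3, Spink1 differed by -3.97 (limma adjusted p = 0.0467), Lrrc26 by -1.33 (0.0467) and Hepacam2 by 1.68 (0.0466), and with Ido1 and Atp7b that fit called 5 genes.

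**Figure D3:**
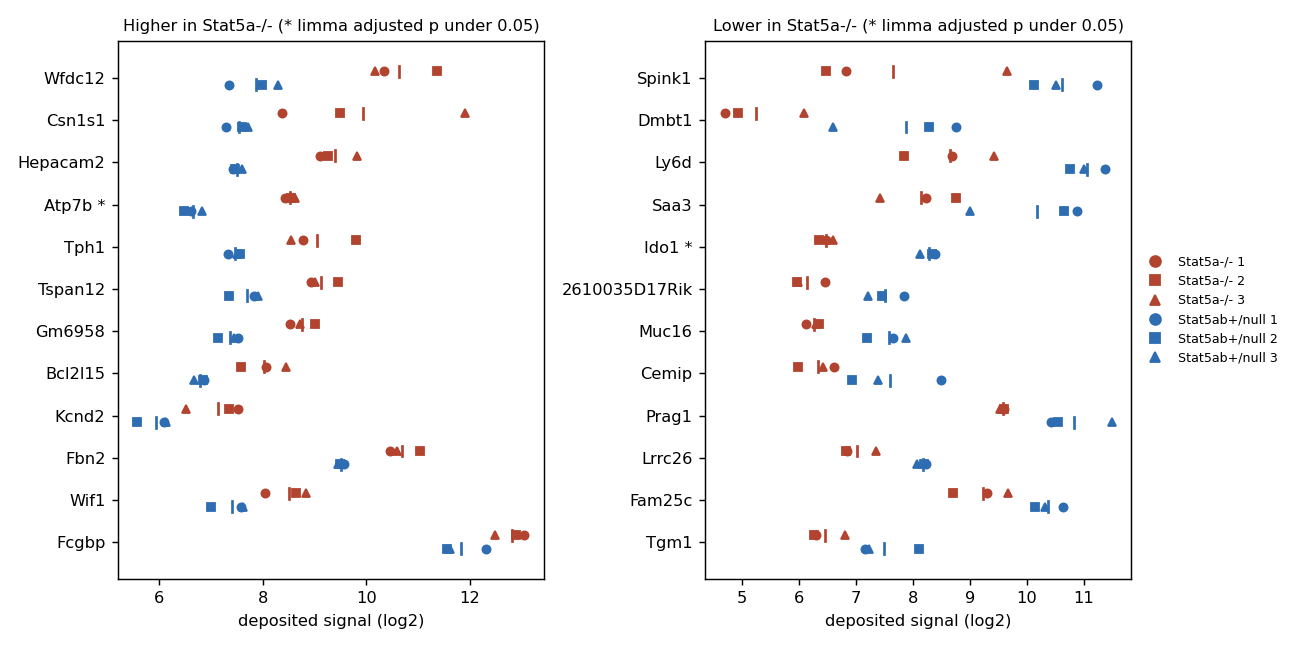
Deposited log2 signal (horizontal axis) in each of the 6 arrays for the 12 genes with the largest positive (left) and the 12 with the largest negative (right) differences chosen by the rule above; points are arrays, vertical ticks group means, and asterisks mark the called genes Atp7b and Ido1. Points of both groups are tight for Atp7b and Ido1 and those of the arrays labelled Stat5a-/- wide for Csn1s1 and Spink1.

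Since B cell signal differed between mice of either genotype, the comparison was repeated at equal B cell signal, with the B cell list mean of each array as a covariate. Then 3 genes passed, 0.0208% of those tested: Ido1 (-1.78), Atp7b (1.89) and Hepacam2 (2.00), each with a limma adjusted p = 0.0270. In that fit no gene passed without Stat5a-/- 1, Stat5a-/- 2 or Stat5ab+/null 1, Spink1 alone passed without Stat5a-/- 3, and Hepacam2 passed in 1 of the 6 fits with an array left out, the one without Stat5ab+/null 2. All 24 genes with the largest differences kept an unadjusted p under 0.05 and, by their selection, their sign. None of the 24 had a called slope on B cell signal, against 1.45% of all genes, a share too low to read a difference from 24. None of the 1757 genes at an unadjusted p under 0.05 without the covariate had one either. Genes that vary with B cell signal within the groups seldom reach a small p, so selection favours this and it is no result. Differences of the 24 at equal B cell signal ran from 0.82 to 2.92 and from -2.58 to -0.84. Csn1s1 stood farthest above its uncorrected value (2.92 against 2.39), but its difference was 0.98 with the luminal list as the covariate. Of these 1757 genes, 1526 kept an unadjusted p under 0.05 with the same sign, and none changed sign, which their selection by p also favours. With the covariate 2330 genes (16.2%) had an unadjusted p under 0.05, 686 higher (4.76%) and 1644 lower (11.4%), and 35.6% of all genes lay above 0.

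The slope on B cell signal was itself called for 209 genes (1.45%), 193 rising (1.34%) and 16 falling (0.111%) with it. Off the B cell list, whose slopes are fixed by the covariate, 196 of 14390 genes (1.36%) were called. The 8 of these with the smallest p, picked after their values were seen, included H2-Ob and H2-Oa, the chains of a class II cofactor of B cells, and H2-DMb2, Fcrl1, Rhoh and Glycam1. H2-Ob read 5.20, 4.55 and 10.60 in the arrays labelled Stat5a-/- against 5.78, 10.59 and 7.75, with a slope of 1.28 per log2 unit of B cell signal (limma adjusted p = 1.80e-04). It differed by -1.26 between genotypes as deposited and by 0.24 at equal B cell signal. Of the 12 muscle genes, 8 had called positive slopes, and the median muscle difference moved from 0.40 to 1.14 with the covariate. Without it that median was -0.81 when Stat5a-/- 3 was left out and 1.06 when Stat5ab+/null 2 was, so its sign rests on single arrays, and it was -1.82 with the luminal list as the covariate. The count of called slopes was 83, 72 and 73 without Stat5a-/- 1, 2 and 3, 97 without Stat5ab+/null 1 and 358 without Stat5ab+/null 3.

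**Figure D4:**
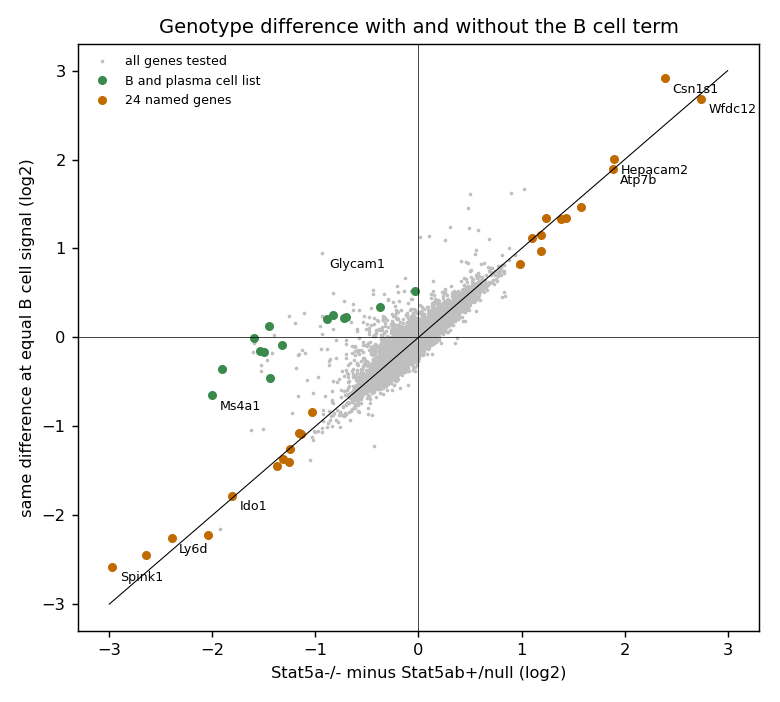
Log2 difference of each gene, Stat5a-/- minus Stat5ab+/null as labelled, without (horizontal axis) and with (vertical axis) the B cell list mean as a covariate; grey points are all 14404 genes, green the 14 B and plasma cell genes, orange the 24 genes with the largest differences, and the diagonal line marks equal values. The orange points lie near the diagonal, which their selection favours, and the B cell genes, which make up the covariate, move from a median of -1.38 to 0.06.

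The milk protein genes are the classical targets of prolactin and STAT5. Of 13 measured, 9 lay above 0, with a median log2 difference of 0.04 against -0.07 over all genes, and none passed. With 1 array left out the median was 0.05 (without Stat5a-/- 3) to 0.23 (without Stat5a-/- 1). An unadjusted p under 0.05 was reached by 4 of the 13, all higher, where 4.1% of all genes were. Csn1s1 read 8.38, 9.50 and 11.90 in the arrays labelled Stat5a-/- against 7.29, 7.61 and 7.72. Every array of the first group was above the second, but Stat5a-/- 3 alone was more than 2 log2 above the other 2, and without it the difference was 1.40 in place of 2.39. Csn2 read 6.01, 7.01 and 7.18 against 5.62, 5.89 and 6.06, close to the filter level and with overlapping groups (0.87, SE 0.31). Cel, a lipase of milk activated by bile salts, read 8.31, 8.10 and 8.50 against 7.71, 7.27 and 7.48 (0.81, SE 0.16). Glycam1, which is made both by mammary epithelium and by lymph node vessels, read 5.39, 5.64 and 12.16 against 5.70, 12.54 and 7.77, high in the arrays with high B cell signal. Its difference was -0.94 as deposited and 0.95 at equal B cell signal. At equal B cell signal the median of the 13 genes was 0.21. With the luminal list as the covariate it was 0.12, and Csn1s1 differed by 0.98 (limma adjusted p = 0.408). In that fit 2 of the 13 were higher and 1 lower at an unadjusted p under 0.05, against 954 higher and 1896 lower of all 14404 genes.

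Genes of secretory differentiation, the transporters, enzymes and regulators that prepare alveolar cells to secrete, lay above 0 in 13 of 16 cases, with a median of 0.18. None passed, and 4 were higher and 1 lower at an unadjusted p under 0.05, where 4.1% and 8.09% of all genes were. Beside Tph1, Slc34a2, a phosphate transporter of alveolar cells, read 7.59, 7.44 and 7.09 against 6.86, 6.99 and 6.92 (0.45). Gjb2, the gap junction protein connexin 26, differed by 0.42 with overlapping groups. Slc12a2, the sodium-potassium-chloride cotransporter, ran the other way in all 3 of its probe sets: the brightest read 13.11, 12.78 and 12.81 against 13.66, 13.48 and 13.77 (-0.73, SE 0.13), and the others differed by -1.25 and -1.21.

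Regulators of alveolar luminal progenitors were split. Kit, the receptor of stem cell factor, read 12.51, 12.47 and 12.12 in the arrays labelled Stat5a-/- against 11.85, 11.41 and 11.33 (0.83, SE 0.18; a second probe set 0.40). Ehf, an epithelial ETS factor, read 11.27, 11.52 and 11.07 against 10.78, 10.48 and 10.30 (0.77; others 0.26 and 0.85). Elf5, the ETS factor that drives alveolar fate, read 11.74, 12.03 and 11.64 against 11.57, 11.52 and 11.29 (0.34; a second 0.60). At the brightest probe set of these 3 genes every array labelled Stat5a-/- lay above every heterozygous one, as in 6.07% of all genes. The second Kit probe set and the Ehf probe set at 0.26 overlapped between groups, and the other Ehf and Elf5 probe sets did not. Lif, a cytokine, lay the other way (-0.31). The list of 10 had a median of -0.08 with 4 above 0 (median 0.06 without Stat5ab+/null 1 and 0.03 without Stat5a-/- 3). With the luminal list as the covariate the median was 0.17, with 6 of 10 above 0. No member passed (limma adjusted p 0.260 to 0.392 for the 4 named, without a covariate).

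Hormone-sensing luminal genes, expressed in cells with oestrogen and progesterone receptors, had a median of -0.25, with 4 of 9 measured above 0. With the luminal list as the covariate that median was 0.03. Wnt4, the Wnt ligand induced by progesterone, read 10.43, 10.41 and 10.09 against 10.82, 11.03 and 11.56 (-0.83, SE 0.21; a second probe set -0.74). Foxa1, the factor that opens chromatin for the oestrogen receptor, read 10.75, 10.76 and 10.60 against 11.27, 11.17 and 11.77 (-0.70, SE 0.17). Greb1, an oestrogen-induced gene, differed by -0.53 (others -0.23 and 0.082). These 3 genes had separate groups at their brightest probe set, where 13.3% of all genes were lower without overlap. The second Wnt4 probe set also separated the groups, and both other Greb1 probe sets overlapped. Cited1, a transcriptional coregulator, differed by 0.42 with overlap. Tnfsf11, the RANKL ligand through which progesterone acts on neighbouring cells, read 12.14, 11.62 and 11.14 against 11.36, 11.35 and 10.94 (0.41; a second 0.21), also overlapping. None passed (limma adjusted p 0.265 to 0.561 for the 5 named).

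General luminal markers lay below 0 in all but 2 of 18 cases, with a median of -0.15, though 5 lay above 0 after quantile normalization and 3 after centring. Krt7, a luminal keratin, read 11.66, 11.45 and 11.36 against 12.05, 11.97 and 12.05 (-0.53), and the tight junction gene Cldn7 read 9.91, 10.18 and 9.96 against 10.46, 10.44 and 11.07 (-0.64), both without overlap. Ovol1, an epithelial transcription factor, differed by -0.45 and the membrane protease gene St14 by -0.40, both with overlap. Basal markers lay above 0 in 8 of 10 cases, with a median of 0.09. Trp63, the p63 factor of basal cells, read 10.50, 10.32 and 9.82 against 9.93, 9.49 and 9.03 (0.73; others 0.45, 0.10 and 0.043). The keratin genes Krt5 (0.40), Krt17 (0.23) and Krt14 (0.20; others 0.28 and 0.32) overlapped between groups. No luminal or basal gene passed, and 2 basal and no luminal genes were higher at an unadjusted p under 0.05, with 3 luminal genes lower (all genes, 4.1% higher and 8.09% lower). At equal B cell signal 6 of the 18 luminal genes were lower at that level, where 11.4% of all genes were, and the basal median was 0.02. With the luminal list as the covariate the basal median was 0.36, with 9 of 10 above 0.

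**Figure D5:**
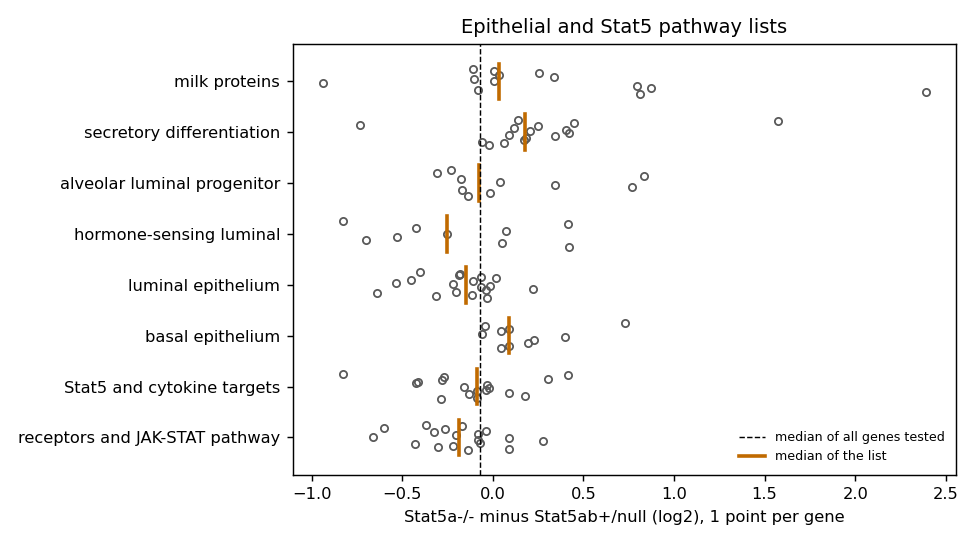
Log2 difference, Stat5a-/- minus Stat5ab+/null as labelled (horizontal axis), of each measured gene of 8 epithelial and pathway lists (rows, 1 point per gene); orange ticks are list medians and the dashed line is the median of all genes tested, -0.07. Secretory genes have the highest median (0.18) and hormone-sensing genes the lowest (-0.25) of the 8 lists, and most points lie within 0.5 of 0.

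Known Stat5 and cytokine targets had a median of -0.09, near that of all genes, with 4 of 17 above 0 and none passing. Wnt4, the member with the largest difference (-0.83), and Tnfsf11 (0.41) are also on this list and are described above. Pim3, a serine kinase induced by cytokines, read 11.84, 11.57 and 11.65 against 12.13, 11.87 and 12.30 (-0.41; a second probe set -0.26). Its relative Pim1 differed by -0.43 but by 0.14 at a second probe set. Of the receptors and kinases of the pathway, 3 of 18 lay above 0, with a median of -0.19. Ptpn1, the tyrosine phosphatase that removes phosphate from Janus kinases, read 10.57, 10.35 and 10.58 against 11.11, 11.26 and 11.11 (-0.66, SE 0.11), and its second probe set also separated the groups (-0.60). Jak3, a Janus kinase of lymphocytes, differed by -0.43 and Tyk2 by -0.37 (a second probe set 0.31), both without overlap at the brighter probe set. Stat4, a lymphoid family member, read 5.39, 5.65 and 7.59 against 5.71, 8.53 and 6.19, again high where B cell signal was high. The prolactin receptor gene Prlr had no probe set that names it alone and was not analysed here. No member of the pathway list passed. Groups were separate and lower for 5 of the 18 pathway genes and 4 of the 17 targets, where 13.3% of all genes were. At an unadjusted p under 0.05, 3 of each list were lower and 0 higher, where 8.09% and 4.1% of all genes were. After quantile normalization 1 pathway gene was lower and 1 higher at that level, and 2 targets were lower.

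Beside Ido1, the 8 other measured genes of tryptophan breakdown differed by -0.18 to 0.30, and the median of the 9 was -0.07, equal to that of all genes. Interferon response genes lay below 0 in 17 of 19 cases, with a median of -0.14 (14 below 0 after quantile normalization), and none passed. Cxcl10, a chemokine induced by interferon, read 6.86, 7.02 and 7.27 against 7.19, 8.77 and 7.25 (-0.68), with 1 high array, Stat5ab+/null 2. Gbp3, a guanylate-binding protein, read 9.53, 9.41 and 9.19 against 9.73, 10.13 and 9.63 (-0.45) without overlap. Iigp1, an immunity-related GTPase, differed by -0.38 (a second probe set -0.31) and the chemokine gene Cxcl9 by -0.30 (a second probe set 0.19), both with overlap. The difference of Ido1 was larger than that of any of the 19 interferon response genes, whose largest was -0.68. Ido1 was singled out by its call among all genes, so this ranking is no result of its own.

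In the EGF family, 1 of 7 measured genes lay above 0. Erbb2, a receptor of the family, read 7.89, 7.90 and 7.60 against 8.06, 8.15 and 8.30 (-0.37) without overlap, and Btc, the ligand betacellulin, differed by -0.24. Tgfa, a ligand of the EGF receptor, gave -0.26, 0.50 and 0.081 at its 3 probe sets, and the receptor gene Egfr differed by 0.21 at its brightest probe set and by -0.25 to 0.32 at the 5 others, which go both ways. Endothelial genes had 4 of 12 above 0 and a median of -0.15 (0.03 without Stat5a-/- 3). Cldn5, the claudin of vessel walls, read 10.66, 10.44 and 9.87 against 11.13, 11.34 and 10.77 (-0.76, SE 0.23) without overlap. Eng differed by -0.45, Vwf by -0.25 and Kdr, a receptor of vascular endothelial growth factor, by -0.24, all with overlap. At equal B cell signal 7 of the 12 endothelial genes had an unadjusted p under 0.05, all lower, where 11.4% of all genes were lower. With the luminal list as the covariate the direction turned: the median was 0.15, with 8 of 12 above 0. At an unadjusted p under 0.05, 2 were then higher and 0 lower, against 954 higher and 1896 lower of all 14404 genes. None of the EGF family or endothelial genes passed in any of these fits.

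The lymphoid lists had negative medians without any separation of the groups. B and plasma cell genes lay below 0 in 14 of 14 cases (median -1.38), T cell genes in 12 of 14 (median -0.41) and lymph node genes in 5 of 6 (median -0.94). No gene of these lists had separate groups or, without a covariate, an unadjusted p under 0.05. With the luminal list as the covariate the medians were -4.05, -1.02 and -2.65. In that fit 14 of 14, 8 of 14 and 4 of 6 were lower at an unadjusted p under 0.05, against 1896 of all 14404 genes, and none passed. Fcmr, an Fc receptor for IgM, read 6.48, 5.76 and 12.02 against 7.40, 12.48 and 10.10 (-1.91). Pou2af1, a B cell transcriptional coactivator, differed by -1.54. Cxcl13, the chemokine of B cell follicles, read 9.46, 8.72 and 9.67 against 9.63 and 8.72 in Stat5ab+/null 1 and 3, with Stat5ab+/null 2 more than 3 log2 higher (-1.17), and its receptor gene Cxcr5 differed by -1.13. Ccr7, the receptor that guides cells into lymph nodes, read 5.87, 6.07 and 8.01 against 6.12, 10.21 and 6.44 (-0.94). Without Stat5ab+/null 2, Cxcl13 differed by 0.11 and Ccr7 by 0.37, and the medians of the T cell and lymph node lists turned to 0.22 and 0.16. The median of the B cell list then was -0.053.

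Cell cycle genes lay above 0 in 4 of 21 cases (median -0.13, and -0.51 to 0.09 with 1 array left out) and in 17 of 21 at equal B cell signal (median 0.06). With the luminal list as the covariate 2 of 21 lay above 0 (median -0.66). At an unadjusted p under 0.05, 12 of 21 were then lower and 0 higher, against 1896 lower and 954 higher of all 14404 genes. The list averaged 8.77, 9.12 and 9.92 in the arrays labelled Stat5a-/- against 9.05, 9.44 and 9.65. Immediate early genes, induced within minutes of stress or handling, lay above 0 in 1 of 12 cases (4 after quantile normalization), with a median of -0.21 (0.05 without Stat5a-/- 3). Macrophage genes differed by -0.19 to -0.0043 (12 of 12 below 0, 9 after quantile normalization). Medians were 0.05 for lipid synthesis (13 of 18 above 0), -0.0017 for white adipocytes (5 of 11), -0.12 for brown adipocytes (3 of 9), -0.018 for fibroblast matrix (6 of 12), 0.058 for nerve (3 of 6), -0.13 for skin keratinocytes (1 of 4), -0.07 for clock genes (6 of 16) and -0.051 for antigen presentation (3 of 10). The medians of white adipocytes (0.012) after quantile normalization and of fibroblast matrix (0.012) after centring lay on the other side of 0. No member of these lists was called.

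Of the 10 protein-coding genes on each side of Stat5b and Stat5a on chromosome 11, 17 of 20 were measured. None was called, 4 lay above 0, 5 had separate groups and 3 had an unadjusted p under 0.05, against 19.3% and 12.2% of all genes. Atp6v0a1, a subunit of the vacuolar proton pump, read 9.54, 9.40 and 9.33 against 9.92, 9.69 and 10.16 (-0.50). Naglu, a lysosomal enzyme, differed by -0.27 and Hcrt, the orexin precursor, by 0.23.

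Among all 31526 probe sets past the filter, 5 passed (0.0159%), including those of Atp7b and Ido1. The smallest p belonged to a probe set annotated to Xaf1, an interferon-induced regulator of apoptosis. This probe set (1443621_at) read 6.21, 6.25 and 6.39 in the arrays labelled Stat5a-/- against 9.03, 9.13 and 8.80, a difference of -2.70 (SE 0.12, limma adjusted p = 0.00330). The brighter Xaf1 probe set differed by 0.075 with overlap, so the 2 probe sets of 1 gene did not behave alike. Of the 3 Plscr1 probe sets, 1 (1429527_a_at) read 8.55, 8.66 and 8.57 against 7.42, 7.38 and 7.52 (1.15, limma adjusted p = 0.0484), while the brightest differed by -0.0025. The fifth, 1446540_at, names no gene and read 6.99, 7.22 and 7.08 against 5.36, 5.14 and 5.55 (1.75, limma adjusted p = 0.0330). Its heterozygous values all lie under the filter level, so the size is uncertain. Each of these 3 probe sets had tight values within both groups.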

How the data were processed

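Total RNA of 12 mammary samples was extracted with Trizol and hybridized as biotin-labelled cRNA to Affymetrix arrays, per the labels' protocols. The authors deposited log2 signals, 1 per probe set and array. RMA and Partek are named in the submitters' processing notes, and their versions and settings and any genome build are not stated in the sources used here. The 6 arrays were grouped by the genotype label, with replicates numbered in record order.

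Of 45101 probe sets, 34945 named 1 gene in the platform annotation and 932 several. Without a gene were 9160, beside 64 controls. Probe sets whose mean over the 6 arrays lay under the 30th percentile, log2 6.01, were dropped, and each gene was read from its brightest probe set, which gave 14404 genes. limma 3.58.1 in R 4.3.3 (lmFit, eBayes, 2-sided, Benjamini-Hochberg, call at an adjusted p under 0.05) was fitted to these 6 arrays, with and without the B cell list mean as a covariate, after a check on simulated data. Levels are not compared between genes. Exact permutation tests were run on the 4 Stat5 probe sets.

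Of 375 genes on 27 lists, 330 were measured; others were under the filter or had no probe set of their own. Genes were named by rule: Stat5a and Stat5b; the 12 largest rises and 12 largest falls, called genes first and then genes with an unadjusted p under 0.05, separate groups and the same sign at equal B cell signal; called genes in the covariate fit; and the 4 largest differences of a list. Some lists are given by counts alone, and exceptions are marked where they occur. The comparison, the lists and the rule were chosen with earlier results of these data known. Promoter sequences are from RefSeq (GRCm38.p6). Several genes had no window, among them Ido1, Ly6d, Csn3, Spink1, Dmbt1, Prag1 and Fbn2. Alternatives covered the filter, scaling, probe set choice, variance model, array weights, spread, thresholds, covariates and left-out arrays.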

Additional observations from a re-analysis of the deposited data

How the results depend on the processing

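The count of called genes, 2 as reported, was 4 with array weights, 4 with the muscle list as a covariate, 5 over every probe set past the filter, 1 with the spread of all 12 arrays, and 0 with a 1.5-fold minimum, the luminal list as a covariate, an adjusted p under 0.01, or Stat5a-/- 3 and Stat5ab+/null 2 left out together. Leaving out 1 array at a time gave 0 to 5 called genes, 0 to 2 at equal B cell signal, 72 to 358 called slopes on B cell signal, and 0 to 1 called probe sets. Ido1 passed in 14 of 22 alternatives (differences -1.91 to -1.75, adjusted p 0.00288 to 0.147), Atp7b in 12 (1.26 to 1.98, 0.00288 to 0.147) and Hepacam2 in 4 (1.61 to 2.04, 0.0270 to 0.627). Without moderation the count was again 2, but the genes were Hmgxb3 and Hgd. With probe sets averaged per gene they were Ido1 and Xaf1. No sign of Stat5a, Stat5b or the 24 largest differences turned in these alternatives. With arrays left out this was fixed in advance, since the groups of these genes do not overlap. The settings of filter, variance model and threshold leave the difference itself unchanged, and the sign with the B cell covariate was part of the selection. The unturned signs are therefore little of a check. The brighter Stat5b probe set differed by -0.23 after quantile normalization, and the median of the secretory list was 0.17 to 0.26 with 1 array left out. Of the 27 list medians, 16 turned sign when some 1 array was left out, among them muscle (-0.81 to 1.06), T cells (-0.79 to 0.22), lymph node (-1.63 to 0.16), cell cycle (-0.51 to 0.09), brown adipocytes (-0.26 to 0.18), antigen presentation (-0.18 to 0.15), immediate early genes (-0.40 to 0.05), alveolar progenitor (-0.13 to 0.06) and endothelium (-0.28 to 0.03). The other 11 kept their sign. Signs turned for Glycam1 (0.95 with the B cell and 0.54 with the T cell covariate, -3.15 to 1.00 with 1 array left out, among them 0.23, 0.11 and 1.00), Stat4 (0.069 with the B cell covariate, -1.29 to 0.26), Cxcl13 (-2.03 to 0.11), Ccr7 (-1.68 to 0.37), Vwf (0.17 with the luminal covariate) and Tgfa (0.11 with the mean of its probe sets, -0.50 to 0.053). The cause was not tested. Limits are 3 arrays a group, 4 residual degrees of freedom, Stat5 signals that run against the labels, and lymph node and muscle signal that differs between mice of 1 genotype. No paired analysis was possible because the labels give no replicate numbers shared between the groups.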

Other observations

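Atp7b and Ido1, the 2 called genes, lie on the same chromosome with 27 protein-coding genes between them in the RefSeq gene order. Of these, 22 were tested: 1 had an unadjusted p under 0.05 (Nek3, a mitotic kinase relative, at -0.39), 4 had separate groups (19.3% of all genes did), and the median size of the difference was 0.0861 on the log2 scale. Of the other 737 genes tested on chromosome 8, 99 had an unadjusted p under 0.05, 158 had separate groups and the median size was 0.150. The stretch was looked at after the calls were seen. Differences of at least 2-fold with an unadjusted p under 0.05 were found in 11 genes higher and 16 lower in the arrays labelled Stat5a-/-, out of 59 genes with a difference of that size.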
